A study of Homo sapiens with 4 samples.

Results

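The DNA replication machinery was followed as 47 genes of the chromosomal replication fork, chosen by symbol from a table of 23362 coding genes. They fall into 9 roles: the origin recognition complex, licensing factors, the MCM helicase, the factors that activate it, polymerase alpha-primase, polymerases delta and epsilon, the sliding clamp with its loader, the single-strand binding protein RPA, and lagging strand maturation. All 47 genes were in the table and had an FPKM (mapped fragments scaled for transcript length and library size) that reached 1 in at least 1 library, the filter that 11729 of 23196 symbols passed.

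RNA sequencing was performed on MKN28, a human gastric adenocarcinoma cell line, with 1 library for each of 4 groups. KIAA1324 is a transmembrane glycoprotein, and the groups ask how its N-linked sugars and its membrane anchor bear on gene expression. Cells of every group carried a tet-on construct, in which doxycycline switches the inserted gene on, and the methods describe the KIAA1324 lines as made by retroviral infection and selection with G418 and puromycin. Luc cells expressed luciferase and served as the control, WT cells carried wild type KIAA1324, 3NQ cells carried KIAA1324 with asparagine changed to glutamine at its 3 N-glycosylation sites, and ΔTM cells carried KIAA1324 without its transmembrane domain. Doxycycline treatment of the cells before RNA extraction is given for the sequenced libraries neither by the labels nor by the methods. There is no replicate of any group, so no difference below has a replicate check, no test was made and no SD can be given.

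Cells copy their genome once per division. The origin recognition complex marks the start sites, CDC6 and CDT1 load the ring-shaped MCM helicase there, and the kinase CDC7 with DBF4, together with CDC45, the GINS complex and MCM10, turns the loaded ring into an active helicase. Polymerase alpha-primase lays down primers, polymerases epsilon and delta extend the leading and the lagging strand on the PCNA clamp, and nucleases and ligase I join the lagging strand fragments. Many of these genes are known targets of E2F factors, which bind near their start sites as cells prepare to enter S phase.

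KIAA1324 itself (ENSG00000116299, chr1:109656301-109749401 of GRCh37) measured 2.86 FPKM in Luc against 11185 in WT and 8197 in 3NQ, and it was listed at 0 in the fourth library. That library is therefore called by its label, as the ΔTM-labelled library. Expression of its construct is not seen in these values, and whether its reads could be counted is not given. The label was thus not checked, and values of this library cannot be assigned to the mutant protein. The epithelial genes EPCAM and CDH1 were expressed in all 4 libraries, with FPKM from 345 to 391 and from 233 to 272. The keratins KRT8 and KRT18, also epithelial, were lower in WT than in Luc, by log2 ratios of −0.91 and −0.80. Of the markers of other cell types, COL1A1 lay between 12.1 and 15.3 FPKM, COL1A2, PDGFRB, PTPRC and VWF were below 0.4 in every library, and CD3E was listed at 0. The summed FPKM of the table lay between 560540 and 585104, and no read counts were given, so the depth of the libraries is unknown.

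Start site sequences were examined first, as the E2F-type element is the feature these genes are best known to share. RefSeq windows of 300 bases on GRCh38.p14, from 250 bases before to 50 after each annotated start, were found for 40 of the 47 genes, and 9 of them had more than 1 window. DNA2, GINS4, MCM4, MCM5, POLD3, RPA2 and RPA3 had none. An E2F-type element was searched on both strands as the letters TTCCCGC, with the variant TTGGCGC, the variant TTCGCGC and the variant TTGCCGC. It was found for 28 of the 40 genes (70.0%), compared to 15.3% of 27305 genes with a window and 25.7% of the 8595 that also passed the expression filter. The CCAAT box, searched as CCAAT, was found for 22 genes (55.0%) against 43.6% of expressed genes. The CHR, an element of mitotic genes searched as TTTGAA and its variant TTCGAA, was found for 3 (7.5%) against 15.6%. A match describes only the letters in the window, and elements can share bases, as the CCAAT box and the E2F-type match of PRIM1 do.

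5 windows are shown from 120 bases before to 30 after the start, in the direction of transcription, with E2F-type matches in capitals. POLE2, RFC4 and PRIM1 were chosen as genes with a match that were lower in WT than in Luc by 1.5-fold or more, DBF4 as a gene so lowered without a match, and GINS3 as a gene with a match that was not lowered.
POLE2 (chr14:49688185-49688334, minus strand): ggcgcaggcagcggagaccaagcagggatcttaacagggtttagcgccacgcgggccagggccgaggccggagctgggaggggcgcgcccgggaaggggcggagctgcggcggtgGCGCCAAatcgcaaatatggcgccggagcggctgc
RFC4 (chr3:186806453-186806602, minus strand): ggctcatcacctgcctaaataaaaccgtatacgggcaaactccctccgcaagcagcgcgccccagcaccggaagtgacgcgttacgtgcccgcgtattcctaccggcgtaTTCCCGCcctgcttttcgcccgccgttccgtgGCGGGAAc
PRIM1 (chr12:56752294-56752443, minus strand): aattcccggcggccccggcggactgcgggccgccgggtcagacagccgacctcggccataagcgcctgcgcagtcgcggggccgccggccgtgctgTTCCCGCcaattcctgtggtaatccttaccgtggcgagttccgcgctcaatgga
DBF4 (chr7:87876373-87876522, plus strand): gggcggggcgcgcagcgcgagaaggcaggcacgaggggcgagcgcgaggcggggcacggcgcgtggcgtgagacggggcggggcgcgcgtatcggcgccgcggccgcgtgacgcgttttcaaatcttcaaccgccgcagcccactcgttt
GINS3 (chr16:58392351-58392500, plus strand): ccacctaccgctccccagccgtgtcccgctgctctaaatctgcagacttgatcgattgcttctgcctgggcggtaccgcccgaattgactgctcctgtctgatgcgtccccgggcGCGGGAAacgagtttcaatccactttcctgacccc
Within the members, the median ratio was similar with and without a match, and a relation between match and ratio was not tested. The 28 genes with a match had a median log2 ratio of WT to Luc of −0.42, and the 12 without one had a median of −0.48.

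The replication genes as a group were lower in WT than in the control. Their median FPKM was 36.3 in Luc against 24.2 in WT, 29.7 in 3NQ and 34.9 in the ΔTM-labelled library. Their FPKM summed to 2335, 1837, 2097 and 2283 in the same order, which was 0.406%, 0.325%, 0.358% and 0.407% of all FPKM in the library. WT was thus the lowest of the 4, 3NQ lay between WT and Luc, and the ΔTM-labelled library lay close to Luc. In bulk RNA, fewer cells in S phase and less RNA per cell cannot be told apart.

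For each gene, the difference was expressed as the log2 ratio of FPKM + 1, which understates differences of low genes, and a gene was called at 1.5-fold (0.58 on the log2 scale). Against Luc, the median ratio of the 47 genes was −0.42 in WT, where 43 genes lay below Luc, while the median of all genes tested was −0.0049 and 50.9% of them lay below Luc. Called lower in WT were CDC45, DBF4, PRIM1, POLE2, RFC4, LIG1 and DNA2, 7 of 47 genes or 14.9%, against 3.3% of all genes. POLE2 and DNA2 are also named in the key of a plot that the study made from these same libraries. From the same data, the paper had already linked the genes lowered in WT alone to replication of DNA. Its gene set enrichment for WT also gave a negative relation to that pathway. Neither the 7 calls nor the lower level of the 47 genes is therefore evidence independent of the paper. With a pseudocount of 5, RFC4 alone was called (2.13% of the members, against 1.09% of all genes). Against the mean of 3NQ and the ΔTM-labelled library in place of Luc, no member was called, where 1.66% of all genes were. In both settings the member count was near or below the share of all genes. The ratios themselves stayed below the control for 43 of the 47 genes in each. Their medians were −0.38 and −0.28, against −0.0035 and 0.036 for all genes. None of the 47 genes was called higher in WT, where 3.35% of all genes were. Such a share is few genes among 47, so this absence is near the background. At a lower threshold of 0.32 on the log2 scale, 29 of the 47 genes (61.7%) were lower in WT, against 12.7% of all genes.

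In 3NQ the median ratio was −0.20, with 39 genes below Luc, and in the ΔTM-labelled library it was −0.050, with 28 below. The second of these medians changed direction, to 0.012, after the libraries were scaled by a median of ratios. The medians of all genes were −0.038 and −0.060, and 57% and 63% of all genes lay below Luc. None of the 47 genes was called lower or higher in 3NQ, where 2.54% and 1.72% of all genes were, nor in the ΔTM-labelled library, where the shares were 1.57% and 1.53%. With 47 genes, shares of this size amount to about 1 gene, so the absence of calls in these libraries is near the background. The 3 comparisons use the same Luc library and cannot be read as separate evidence.

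**Figure D1:**
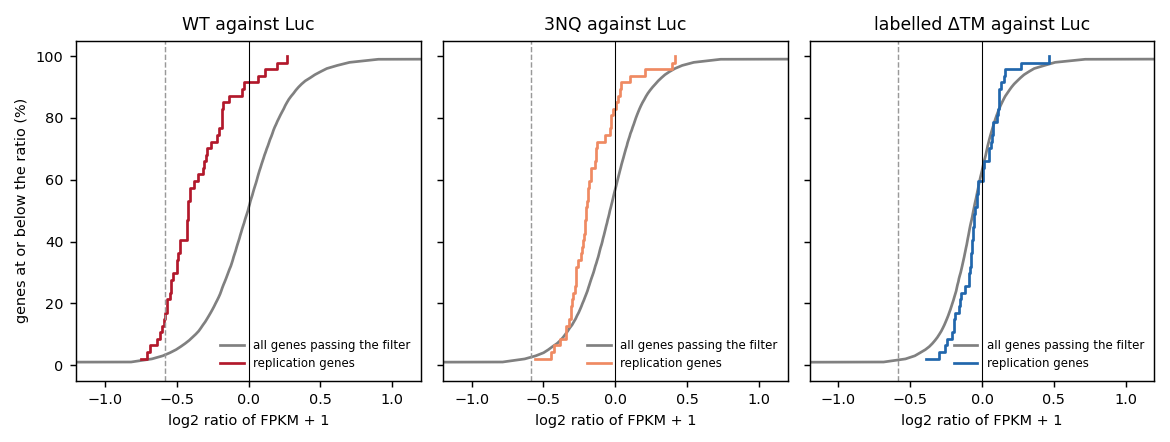
Cumulative share of genes (vertical axis, %) at or below each log2 ratio to Luc of FPKM + 1 (horizontal axis), for the 47 replication genes (coloured steps) and the 11729 genes passing the filter (grey). The dashed line marks 1.5-fold lower. The coloured curve lies left of the grey one in WT (medians −0.42 and −0.0049), less so in 3NQ (−0.20 and −0.038), and close to it in the ΔTM-labelled library (−0.050 and −0.060).

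The libraries were also compared without Luc. Of the 47 genes, 44 were lower in WT than in 3NQ and 42 were lower in WT than in the ΔTM-labelled library, whereas 45.1% and 43% of all genes were. The median ratios were −0.22 and −0.36 for the members, and 0.025 and 0.047 for all genes. CDC6 was the single member called lower in WT than in 3NQ (−0.71), while 1.53% of all genes were called. Against the ΔTM-labelled library, 7 members (14.9%) were called lower in WT, namely GINS4, CDC45, PRIM1, PRIM2, RFC4, POLE2 and POLD1, against 2.89% of all genes. The median ratio of 3NQ to the ΔTM-labelled library was −0.14, with 40 members lower in 3NQ. Over all genes this median was 0.021, and 45.7% were lower in 3NQ. GINS4 alone was called lower in 3NQ (−0.89), where 1.84% of all genes were. WT held the lowest FPKM of the 4 libraries for 40 of the 47 genes (85.1%), compared to 26.6% of all genes. All comparisons that include WT, that with Luc among them, use the same WT library and cannot be read as separate evidence.

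**Figure D2:**
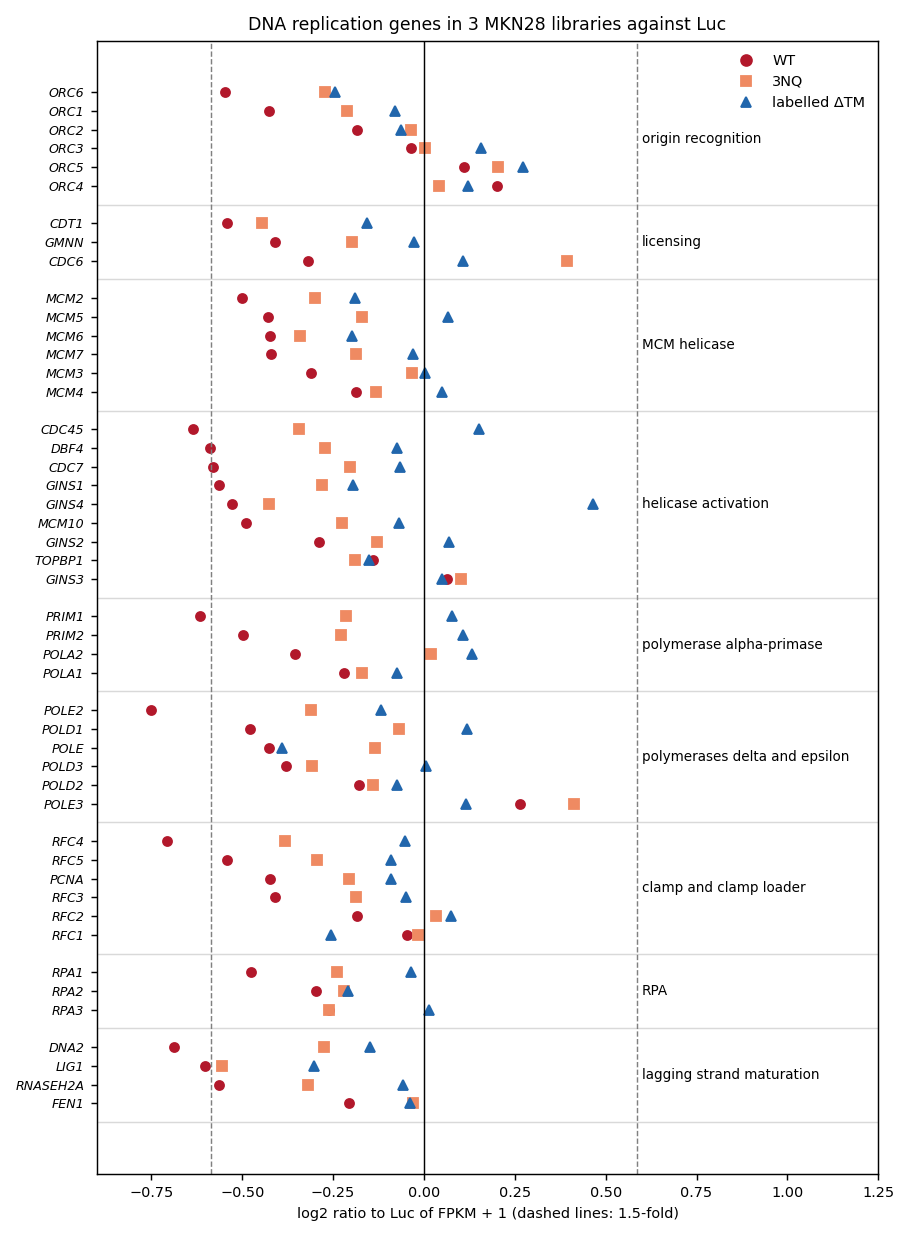
Log2 ratio to Luc of FPKM + 1 (horizontal axis) for each of the 47 genes, grouped by role, in WT (circles), 3NQ (squares) and the ΔTM-labelled library (triangles), 1 library each. Dashed lines mark 1.5-fold in either direction. 7 circles lie at or left of the lower line, and no square or triangle passes either line.

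Of the 9 roles, the origin recognition complex had the median closest to Luc in WT. Its 6 genes had a median ratio of −0.11 in WT, beside −0.016 in 3NQ and 0.029 in the ΔTM-labelled library. ORC6, the smallest subunit of the complex, measured 23.3 FPKM in Luc against 15.6 in WT, 19.1 in 3NQ and 19.5 in the ΔTM-labelled library. It was the most lowered in WT of the 6 (−0.55), and 3NQ and the ΔTM-labelled library lay between WT and Luc. ORC1, which carries the ATPase activity of the complex and had its lowest level, measured 13.8, 9.99, 11.7 and 13.0 in the same order of libraries. ORC4, a core subunit and the most abundant of the 6, measured 67.1, 77.3, 69.1 and 73.1, so that it was highest in WT, the single member for which this was so. Its ratio in WT was 0.20. Its exons overlap those of another coding gene over at least 431 bases, so its FPKM can hold reads of a neighbour. ORC2 and ORC3 lay below Luc in WT by −0.18 and −0.03, and ORC5 lay above it by 0.11. The lower side of this complex was thus held by ORC1, ORC2 and ORC6, while ORC3 lay close to Luc.

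The licensing factors all lay below Luc in WT, with a median of −0.41. CDT1, which brings the MCM ring to origins, measured 18.2 FPKM in Luc against 12.2 in WT, 13.1 in 3NQ and 16.2 in the ΔTM-labelled library, and its ratio in WT was −0.54. GMNN encodes geminin, the inhibitor of CDT1, and it was also below Luc in WT (−0.41). CDC6, the ATPase that loads the ring together with CDT1, measured 58.7 FPKM in Luc against 46.8 in WT, 77.4 in 3NQ and 63.3 in the ΔTM-labelled library. Its level was lowest in WT and highest in 3NQ, with ratios of −0.32 and 0.39 to Luc.

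The 6 subunits of the MCM helicase, which unwinds the DNA ahead of the fork, lay below Luc together in WT and over a narrow range, from −0.50 to −0.19. Their median was −0.42 in WT, beside −0.18 in 3NQ and −0.013 in the ΔTM-labelled library, and no subunit was called. MCM2 measured 130 FPKM in Luc against 91.4 in WT, 105 in 3NQ and 114 in the ΔTM-labelled library, the largest difference of the 6 in WT. MCM4, the most abundant subunit, measured 151, 133, 138 and 157 in the same order, and MCM3, the least abundant in Luc, measured 72.4, 58.2, 70.8 and 72.6. WT held the lowest value of each of the 6 subunits, which bind each other in equal numbers in the ring.

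Helicase activation was the largest role, with 9 genes of which 8 lay below Luc in WT, and its median was −0.53 in WT, beside −0.23 in 3NQ and −0.065 in the ΔTM-labelled library. CDC45, which binds MCM and GINS to form the active helicase, measured 52.8 FPKM in Luc against 33.6 in WT, 41.3 in 3NQ and 58.7 in the ΔTM-labelled library. This is a ratio of −0.63 in WT, with the ΔTM-labelled library above Luc. DBF4, the activating subunit of the kinase CDC7, measured 29.6, 19.3, 24.3 and 28.0, a ratio of −0.59 in WT that lay just past the threshold. CDC7 itself lay just outside it, at −0.58, so that the kinase and its activator differed little in their ratios. Next to these, the nearest 3 members inside the threshold were LIG1, PRIM1 and CDC45, and the nearest 3 outside it were GINS1 (−0.57), RNASEH2A and ORC6. The exons of DBF4 overlap those of the coding gene SLC25A40 over at least 145 bases, and the annotation holds 3 pseudogenes of DBF4.

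The 4 subunits of GINS form 1 complex, and their mRNA levels did not move alike. GINS3 was the least abundant in Luc, with 11.0 FPKM in Luc against 11.6 in WT, 11.9 in 3NQ and 11.4 in the ΔTM-labelled library, and it was lowest in Luc. GINS1 and GINS2 lay below Luc in WT, by −0.57 and −0.29. GINS4, described here after its values were seen, measured 30.6 FPKM in Luc against 20.9 in WT, 22.5 in 3NQ and 42.6 in the ΔTM-labelled library. It was lower than Luc in WT and 3NQ and higher in the ΔTM-labelled library, where its ratio of 0.47 was the highest of the 47 genes. TOPBP1, a scaffold for origin firing, differed little among WT (−0.14), 3NQ (−0.19) and the ΔTM-labelled library (−0.15), and MCM10, which helps to activate the helicase, was at −0.49 in WT.

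Polymerase alpha-primase makes the RNA-DNA primers from which both strands are extended, and all 4 of its subunits lay below Luc in WT, with a median of −0.43. PRIM1, the catalytic primase subunit, measured 36.8 FPKM in Luc against 23.7 in WT, 31.6 in 3NQ and 39.0 in the ΔTM-labelled library, and was the most lowered of the 4 (−0.62). POLA1, the catalytic polymerase subunit and the least abundant of all 47 genes in Luc, measured 10.5, 8.89, 9.22 and 9.94 in the same order, and POLA2, its accessory subunit, measured 39.4, 30.6, 40.0 and 43.3. The primase and the polymerase subunits were thus lower in WT to unequal degrees, with PRIM1 and PRIM2 at −0.62 and −0.50 and POLA2 and POLA1 at −0.36 and −0.22. Exons of PRIM1 overlap those of other coding genes, NACA among them, over at least 139 bases. Exons of POLA2 overlap another coding gene over at least 444 bases.

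Among the subunits of polymerases delta and epsilon, 5 of 6 lay below Luc in WT, with a median of −0.40. POLE2, the second subunit of polymerase epsilon, measured 14.0 FPKM in Luc against 7.90 in WT, 11.1 in 3NQ and 12.8 in the ΔTM-labelled library. Its ratio of −0.75 in WT was the lowest of the 47 genes, and its level in WT was 56.6% of that in Luc. POLE3, a histone-fold subunit of the same polymerase that is also part of a chromatin remodelling complex, went the other way and measured 57.7, 69.6, 77.3 and 62.6, lowest in Luc and highest in 3NQ. POLE, the catalytic subunit, was at −0.43 in WT, −0.13 in 3NQ and −0.39 in the ΔTM-labelled library, so that the listed subunits of polymerase epsilon did not move alike. Of polymerase delta, POLD2, an accessory subunit, was the most abundant and measured 122, 108, 111 and 116, while the catalytic POLD1 and the accessory POLD3 were at −0.48 and −0.38 in WT.

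**Figure D3:**
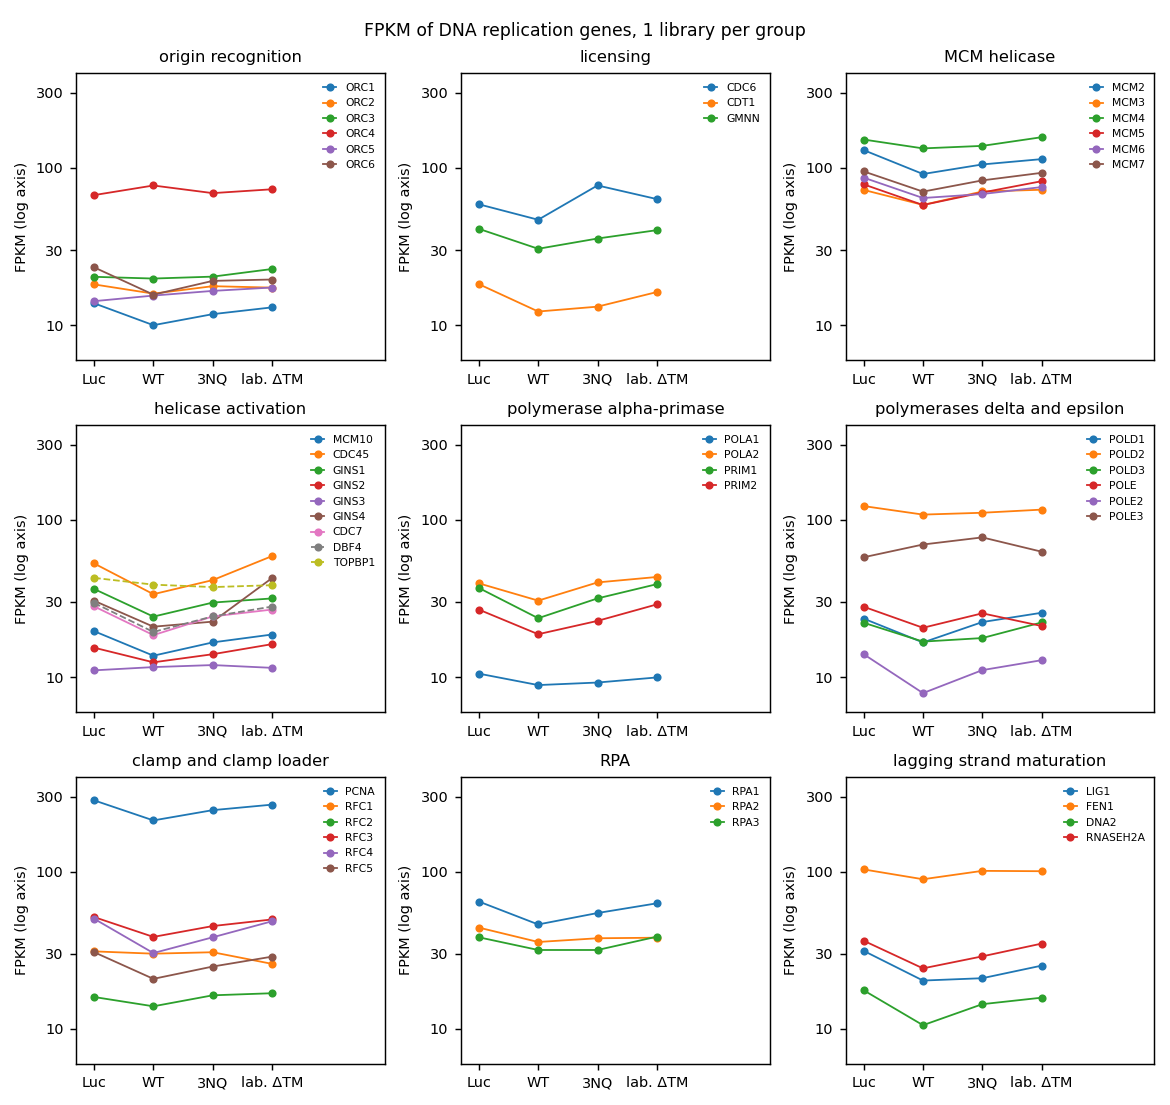
FPKM of each of the 47 genes (vertical axis, log scale) in the 4 libraries (horizontal axis), with 1 panel per role and 1 library per group. Lines only join the values of a gene. For 40 genes the lowest point is WT, POLE3 and ORC4 are not among them, CDC6 peaks in 3NQ (77.4), and GINS4 peaks in the ΔTM-labelled library (42.6).

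PCNA, the ring that holds the polymerases on DNA, was the most abundant of the 47 genes. It measured 284 FPKM in Luc against 212 in WT, 246 in 3NQ and 267 in the ΔTM-labelled library, a ratio of −0.42 in WT. The clamp is loaded by RFC, whose subunit RFC4 measured 50.2, 30.3, 38.2 and 48.3 in the same order. RFC4 was the most lowered of this role in WT (−0.71), with 3NQ between WT and Luc. RFC1, the large subunit of the loader, measured 31.1, 30.1, 30.7 and 25.9 and was lowest in the ΔTM-labelled library, the single member for which this was so. RFC2, the least abundant subunit, measured 16.0, 13.9, 16.3 and 16.9, and RFC3 and RFC5 were at −0.41 and −0.54 in WT. RFC4 shares at least 18 exonic bases with the coding gene EIF4A2. Within the loader, the ratios in WT therefore ran from −0.05 for RFC1 to −0.71 for RFC4. The annotation holds 3 pseudogenes of PCNA, which can take or lend reads.

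RPA coats the single strands that the helicase exposes, and its 3 subunits had a median of −0.30 in WT, beside −0.24 in 3NQ and −0.037 in the ΔTM-labelled library. RPA1, the large subunit, measured 64.5 FPKM in Luc against 46.1 in WT, 54.5 in 3NQ and 62.9 in the ΔTM-labelled library. RPA3, the small subunit, measured 38.2, 31.7, 31.7 and 38.6, equal to 3 digits in WT and 3NQ. RPA2, the middle subunit, was at −0.30 in WT and at −0.21 in the ΔTM-labelled library.

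Lagging strand maturation was the role with the lowest median in WT, −0.58, beside −0.30 in 3NQ and −0.10 in the ΔTM-labelled library. DNA2, a helicase and nuclease that trims long flaps, measured 17.6 FPKM in Luc against 10.6 in WT, 14.4 in 3NQ and 15.8 in the ΔTM-labelled library, a ratio of −0.69 in WT. LIG1, the ligase that joins the fragments, measured 31.4, 20.3, 21.0 and 25.2 in the same order, so that 3NQ (−0.56) was nearly as low as WT (−0.60). FEN1, the flap endonuclease and the most abundant of the 4, measured 103, 89.5, 101 and 101, and differed from Luc by −0.21 in WT. RNASEH2A, which removes RNA primers, was at −0.57 in WT, and its exons overlap another coding gene over at least 254 bases.

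Other genes of replication were read from a list of 34 that holds none of the 47. In WT, 27 of them lay below Luc, with a median of −0.28, 4 were called lower (DNMT1, ASF1B, TOP2A and KIAA0101) and none higher, whereas over all genes 50.9% lay below Luc, 3.3% were called lower and 3.35% higher. DNMT1, which copies DNA methylation behind the fork, was at −1.02 in WT and was also called lower in 3NQ (−0.77) and in the ΔTM-labelled library (−0.69). The histone chaperone ASF1B (−0.89), the topoisomerase TOP2A (−0.81) and the PCNA-binding KIAA0101 (−0.63) were called in WT, and the difference between libraries was not tested. The whole list had a median of −0.11 in 3NQ and −0.065 in the ΔTM-labelled library, and each had 1 of 34 genes called lower, near the 2.54% and 1.57% of all genes, and none called higher.

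Of 12 genes of deoxynucleotide supply, 10 lay below Luc in WT, with a median of −0.45, and RRM2, the small subunit of ribonucleotide reductase, was the 1 gene called (−0.61), against 50.9% below Luc and 3.3% called lower over all genes. Of 20 mitotic genes, all 20 lay below Luc in WT, with a median of −0.54 and 7 called lower, beside the same shares of all genes. The mitotic medians were −0.29 in 3NQ and −0.19 in the ΔTM-labelled library, with CENPE (−0.59) the 1 gene called lower in 3NQ and PRC1 (−0.60) the 1 gene called lower in the ΔTM-labelled library, beside 2.54% and 1.57% of all genes in the same order. The mitotic median was thus further below Luc than that of the replication genes in each of the 3 libraries, and the difference between the lists was not tested.

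**Figure D4:**
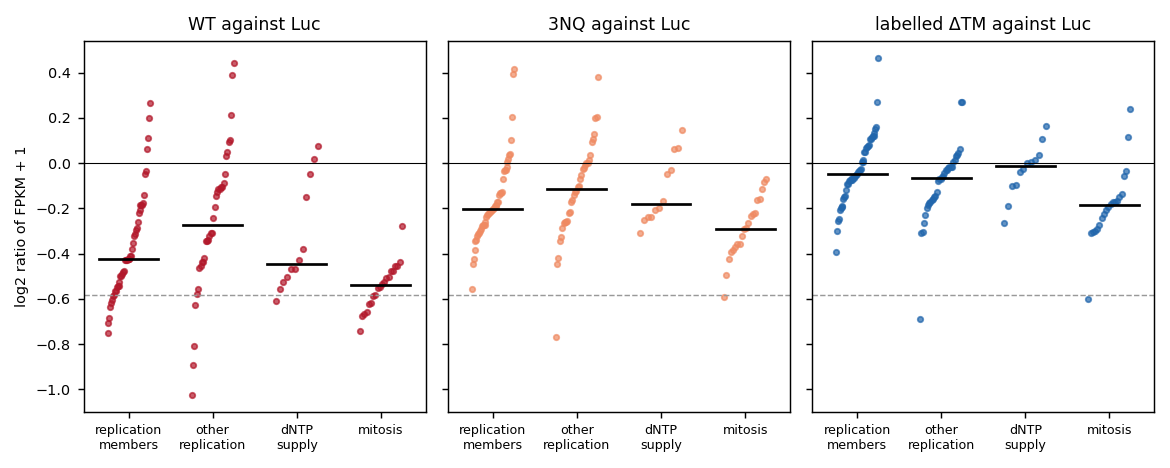
Log2 ratio to Luc of FPKM + 1 (vertical axis) of the 47 replication genes, 34 other replication genes, 12 genes of deoxynucleotide (dNTP) supply and 20 mitotic genes, in each of the 3 libraries. Each point is a gene, bars are medians and the dashed line marks 1.5-fold lower. The medians in WT are −0.42, −0.28, −0.45 and −0.54 from left to right, and all lie closer to 0 in the other libraries.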

How the data were processed

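RNA of 4 MKN28 libraries, 1 per group, was measured. The authors enriched poly(A) RNA, mapped the reads to GRCh37 with TopHat and estimated genes of Ensembl with Cufflinks (version 2.1.1), with non-coding RNA masked and corrections for fragment bias and for reads mapping to several places. The deposited values are FPKM, scaled by the authors for depth and length. Whether the kit kept the strand is not given in the sources used here.

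A symbol on several rows (166 extra rows) took the row with the highest mean FPKM. Ratios were log2 of FPKM + 1, over genes that reached 1 FPKM in at least 1 library, called at 1.5-fold, with Python 3.11.15, numpy 2.4.6, pandas 2.3.3 and matplotlib 3.10.9. The calling step was tested on simulated data. The members and lists were chosen with earlier results of these data known. Genes given with FPKM in every library are those called against Luc and, in each role, those with the lowest and the highest ratio in WT and level in Luc. GINS4 was added after its values were seen. The 12 alternatives covered pseudocount, filter, scaling, membership, repeated symbols, threshold and control. Coordinates of KIAA1324 are from the deposited table, and start site windows are from RefSeq, on another build. In the GRCh37 annotation used here, 15 of the 47 genes had an exon overlapping another coding gene and 10 had a pseudogene of their symbol. Not all of these genes are named above. The overlaps given are the largest with a single exon of another gene, so the total can be larger. That annotation is not the one behind the FPKM, and it can hold genes that the FPKM did not use.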

Additional observations from a re-analysis of the deposited data

Results flagged for a closer look

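For CDC6 and GINS4 the libraries differed from Luc in opposite directions by at least 1.2-fold, a size chosen after the data were seen. The differences between libraries were not tested, as each group has 1 library. CDC6 had a log2 ratio to Luc of −0.32 in WT and 0.39 in 3NQ. GINS4 had ratios of −0.53 in WT and −0.43 in 3NQ, and of 0.47 in the ΔTM-labelled library.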

How the results depend on the processing

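The count of members called lower in WT against Luc, 7 in the report, depended on the threshold, the pseudocount and the control. It was 1 with a pseudocount of 5 (RFC4, 2.13%, against 1.09% of all genes) and 0 at 2-fold (0.571% of all genes). With the mean of 3NQ and the ΔTM-labelled library as control it was 0 (1.66% of all genes). With the mean of the other 3 libraries it was 1 (POLE2, 2.13%, against 1.58%). In these settings the count was near or below the share of all genes, while 43 of the 47 members lay below the control in each. Under the other alternatives the count lay between 5 and 8, apart from 29 at a log2 ratio of 0.32 (61.7%, against 12.7%). At that lower threshold, 3NQ had 6 members called lower (12.8%, against 11.6% of all genes). The ΔTM-labelled library had 1 (2.13%, against 8.28%), so these calls were near or below the share of all genes. Called higher were 2 of the 47 members in 3NQ and 1 in the ΔTM-labelled library. Of all 11729 genes, 818 and 601 were called higher, so the higher calls were not more frequent among the members. The median ratio in WT was −0.28 with the mean of 3NQ and the ΔTM-labelled library as control, and the median in the ΔTM-labelled library became 0.012, above 0, after a median of ratios rescaling. That rescaling moved the share of higher calls among all calls in the ΔTM-labelled library from 49.5% to 59.9%. Over all genes, 387 were called lower in WT, and this was 650 with a pseudocount of 0.1 and 128 with a pseudocount of 5. A larger pseudocount shrinks the ratios by arithmetic, most for low genes. The cause of the other shifts was not tested. No paired analysis was possible because each group has 1 library. The FPKM hold no depth, so the error of a single value is unknown.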
